A study of Bos taurus with 16 samples.

Results

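The Krüppel-like factors (KLF) were followed in CD14+ cells sorted from the endometrium and from the blood of 4 pregnant cows. CD14 is the lipopolysaccharide co-receptor carried by monocytes and macrophages. The array's gene name, or the symbol given in brackets in its description, was KLF followed by a number for 12 genes (KLF2 to KLF11, KLF13 and KLF15) of 19830 gene names on the array. A further probe of KLF13 was named in another field of the annotation and is reported beside the first. No probe was found under the names KLF1, KLF14 or KLF17.

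Animals 1 to 4 were slaughtered at days 164, 239, 242 and 248 of pregnancy, respectively. The endometrial cells came from collagenase-digested endometrium between the placentomes of the horn that held the fetus, and the blood cells came from cardiac blood taken at slaughter. Both populations were gated on the monocyte region and sorted in 2 rounds, and neither group received a treatment. Amplified RNA of both tissues of an animal was hybridized together, in different dyes, to 2 Agilent bovine arrays per animal as technical replicates, which gave 8 arrays and 16 samples with 4 animals per tissue.

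KLF proteins are transcription factors with a conserved set of zinc fingers at the carboxyl terminus, which bind GC-rich and CACCC sequences in promoters, as the related SP factors do. Members differ outside the zinc fingers. KLF3, KLF8 and KLF12 recruit the co-repressor CTBP, KLF9, KLF10, KLF11, KLF13 and KLF16 bind the co-repressor SIN3A, and KLF2, KLF4, KLF5, KLF6 and KLF7 are mostly known as activators. In the monocyte and macrophage lineage KLF2 is known to restrain inflammatory activation, KLF4 takes part in monocyte differentiation and in alternative activation, and KLF6 takes part in inflammatory gene expression.

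Values are the authors' normalized log2 levels from the deposited table. A log2 ratio is the level in endometrium minus that in blood of the same animal, averaged over its technical replicates, so that 1 unit is a 2-fold difference. A level describes 1 probe and was not compared with that of another probe. The test took in every probe that the scanner software marked as well above background in 4 or more of the 8 channels of either tissue. A probe was called where the adjusted p did not exceed 0.05 and the fold change exceeded 2. An SE given with a mean is limma's moderated value, which also draws on the spread of the other probes. It was 0.94 for KLF2, 0.85 for KLF3, 1.71 for KLF15 and 0.49 for KLF6. The methods' analysis of variance, without moderation, gave 1.27, 1.12, 2.53 and 0.35. Moderation thus lowered the SE of the first 3 of these genes and raised that of KLF6. These are bulk samples, in which fewer cells of a type and less RNA per cell cannot be told apart.

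Each probe was an oligonucleotide of 60 bases. The first 30 bases of the probes on which the results turn are shown in lower case, 5′ to 3′ as in the scanner files, so that the measured transcript can be recognised. Where the probes lie within their genes was not determined.
KLF2, probe A_73_108317: gtaaatgagacaagtgggcattttgactac
KLF4, probe A_73_100761: ttatgcactgtggtttcagatgtgcaataa
KLF6, probe A_73_105540: ggtctcatacaggggaatgggtgatgcatg
KLF13, probe A_73_106439: acgccctgaggccccgcctccttaccacag
KLF13, second probe A_73_115556: cagttgtacagttcccaatctggccttggc
The G and C content of these whole probes was 35%, 36.7%, 45%, 60% and 41.7% in that order. The longest run of bases that any of the 17 KLF-named probes shared with a probe of another name on the array, on either strand, was 15, and between KLF-named probes it was 9.

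Animal 1 stood apart in blood. Over all probes tested, its blood sample correlated with the other blood samples at r of 0.787 to 0.822, whereas the other 3 correlated with each other at 0.923 to 0.951. Endometrial samples correlated with each other at 0.746 to 0.856. Probes are not independent of each other, so these correlations are descriptions. The level of CD14, the gene of the sort marker, was 14.04, 6.07, 9.5 and 7.38 in the endometrium of animals 1 to 4 and 16.12, 5.76, 8.85 and 6.94 in blood. It was thus highest in animal 1 in both tissues, although all 16 channels were well above background. In blood, LYZ (lysozyme of myeloid cells) was 17.22 in animal 1 and 12.06 to 13.31 in the others. CSF3R, placed here in the granulocyte list, was 14.69 in animal 1 and 6.37 to 7.05 in the others. Which cells carried it cannot be told from these values. The T cell gene CD3E ran the other way, at 8.03 in the blood of animal 1 and 13.01 to 14.24 in the other 3. Animal 1 was also the animal at the earliest day of pregnancy, so stage and animal cannot be told apart, and the part of these markers in the KLF values was not tested.

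Animal 3 was hybridized with blood in Cy3 and endometrium in Cy5 on both arrays, whereas the dyes were exchanged between the arrays of the other animals. Its log2 ratios over all probes had an SD of 2.37, against 1.63, 1.61 and 1.39 in animals 1, 2 and 4, so large ratios in animal 3 and small ones in animal 4 were a feature of the whole array.

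All 12 KLF genes were tested, and 0 of them were called differentially expressed by limma, whereas 224 of 16653 probes (1.35%) were called over the whole array, of which 204 were higher in endometrium. Without the replicate block 38 probes were called, and without animal 1 there were 64, in both cases with 0 KLF genes. With the same limits but no adjustment of p, KLF4 and KLF6 were higher in endometrium, a rule that 7.98% of all probes met in that direction. By this unadjusted rule KLF3, KLF8 and KLF13 were higher in blood, where 8.05% of all probes met it. Without animal 1 the genes that met it were KLF2, KLF3, KLF8 and KLF13 in blood and KLF4 in endometrium, so that KLF2 entered and KLF6 left. In that fit 1049 of 16653 probes met it in blood and 1054 in endometrium. The methods' analysis of variance gave 3 KLF genes without adjustment (KLF6, KLF8 and KLF13 by its first probe) and 0 after adjustment. The second KLF13 probe did not pass, and 1229 of 16653 probes passed without adjustment. The median log2 ratio was -0.55 over the 12 KLF genes and -0.14 over all probes tested, and the median SD over the animals was 1.23 and 1.12.

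Signs were shared by all 4 animals for 6 of the 12 genes. KLF4 and KLF6 were higher in endometrium in 4 of 4 animals, as were 9.82% of all probes tested. KLF3, KLF5, KLF8 and KLF13 were higher in blood in 4 of 4 animals, as were 15.2% of all probes. The other 6 genes (KLF2, KLF7, KLF9, KLF10, KLF11 and KLF15) had animals on both sides.

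**Figure D1:**
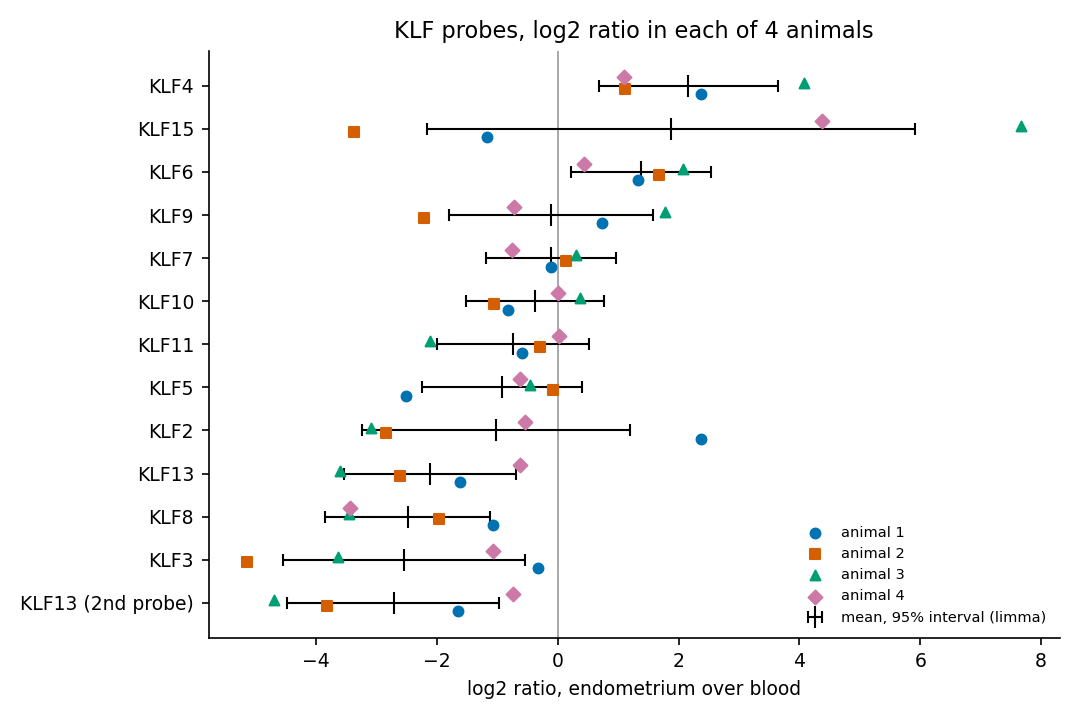
Log2 ratio of endometrium over blood (x axis) for the KLF probes (y axis, ordered by mean). Coloured points are the 4 animals, and black ticks and bars are the mean and limma's 95% interval. All 4 points of KLF4 and KLF6 lie to the right of 0, those of KLF3, KLF5, KLF8 and both KLF13 probes lie to its left, and those of KLF2 spread from -3.10 to 2.37.

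KLF6 had the most even difference of the 3 activators considered first. Its level in endometrium was 16.62, 16.55, 16.11 and 15.51 in animals 1 to 4. In blood it was 15.29, 14.87, 14.04 and 15.07. Every endometrial sample was thus above every blood sample, with animal 4 showing the smallest difference. The tissues were separated in this direction for 2.70% of all probes tested. Within animals the log2 ratio was 1.33, 1.68, 2.07 and 0.43, with a mean of 1.38 ± 0.49 (SE, n = 4 animals), which is 2.60-fold. Without animal 1 the mean was 1.39. The adjusted p from limma was 0.251, and the 95% interval of the mean ran from 0.22 to 2.53.

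KLF4, which together with KLF2 lies downstream of the kinase ERK5 in several cell types, was higher in endometrium in each animal, with a wide spread between animals in both tissues. In endometrium the level was 16.73, 12.15, 15.18 and 11.44 in animals 1 to 4. In blood it was 14.36, 11.03, 11.11 and 10.35. Animal 1 had the highest level in both tissues, and its blood was above the endometrium of animals 2 and 4, so the tissues overlapped. The log2 ratio within animals was 2.37, 1.12, 4.07 and 1.09, with a mean of 2.16 ± 0.63 (SE, n = 4 animals), a 4.48-fold difference with an adjusted p of 0.199 from limma. The SD over animals was 2.5 in endometrium and 1.8 in blood. The mean was 2.10 without animal 1 and 1.53 without animal 3, and without the replicate block the SE was 1.33.

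KLF2, known in T cells for keeping them quiescent and in circulation and in endothelium as a gene induced by laminar flow, had no common direction. Its level in endometrium was 15.33, 12.74, 12.52 and 14.08 in animals 1 to 4, and in blood 12.95, 15.59, 15.62 and 14.62. Animal 1 had the highest endometrial and the lowest blood level, and was the one animal in which endometrium exceeded blood. The log2 ratio was 2.37, -2.85, -3.10 and -0.54, with a mean of -1.03 ± 0.94 (SE, n = 4 animals) and an adjusted p of 0.629 from limma. The 95% interval ran from -3.24 to 1.19. The mean was -2.16 without animal 1, -0.42 without animal 2 and -0.34 without animal 3, so that its size rested on single animals. The technical replicates of a sample differed by at most 0.25 for KLF2, 0.38 for KLF4 and 0.34 for KLF6, which is less than the spread between animals.

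**Figure D2:**
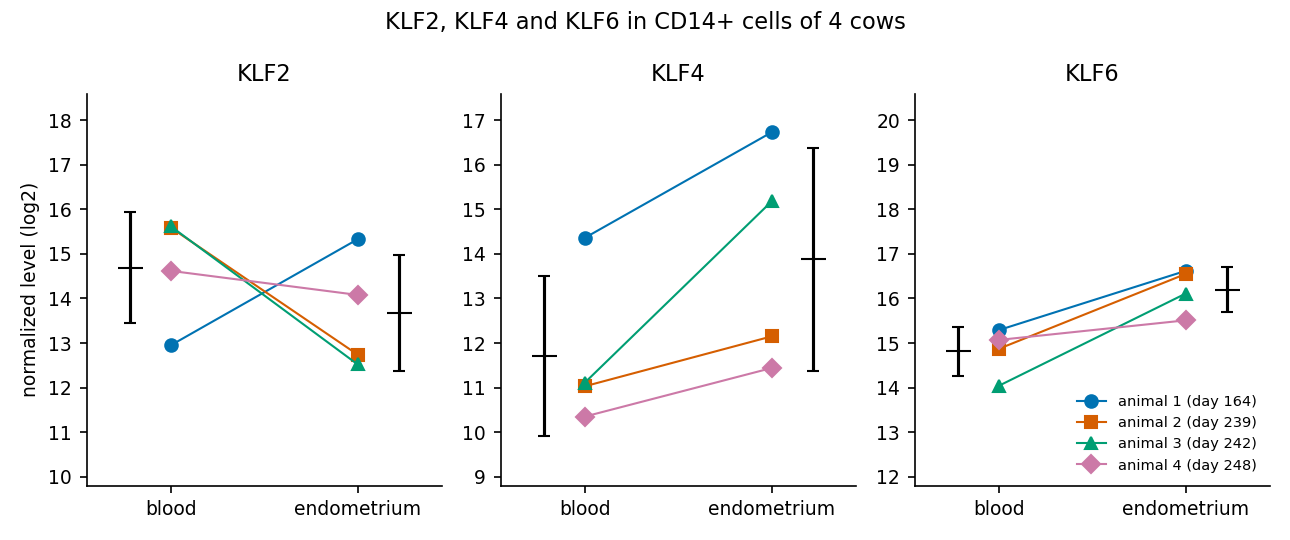
Normalized log2 level of KLF2, KLF4 and KLF6 (y axis, 1 probe per panel, so that heights are not comparable between panels) in blood and endometrium of 4 animals, joined by lines. Black ticks and bars are the mean and SD of each tissue. The line of animal 1 runs against the other 3 for KLF2, and all lines run upward for KLF4 and KLF6.

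Of the other activators, KLF5, which is best known in epithelia and smooth muscle, was higher in blood in 4 of 4 animals. Its log2 ratio was -2.51 in animal 1 and lay between -0.63 and -0.08 in the other 3, and its mean was -0.92 ± 0.56 (SE, n = 4 animals), or -0.39 without animal 1. Its level varied widely in both tissues, from 7.25 to 11.57 in endometrium and from 7.33 to 12.03 in blood. KLF7, a regulator of neuronal and adipocyte differentiation, had the smallest spread, with a mean log2 ratio of -0.11 and a 95% interval from -1.19 to 0.97.

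KLF3 and KLF8, the repressors that bind CTBP, were both higher in blood in every animal. The level of KLF3 was 9.72, 6.03, 7.57 and 9.6 in the endometrium of animals 1 to 4. In blood it was 10.05, 11.17, 11.20 and 10.68. All blood samples were above all endometrial samples, as was the case for 3.37% of all probes, and the blood samples differed little while the endometrial samples differed widely. The log2 ratio was -0.33, -5.14, -3.64 and -1.08, with a mean of -2.55 ± 0.85 (SE, n = 4 animals) and an adjusted p of 0.236 from limma. Without animal 2 the mean was -1.68, and without animal 1 it was -3.29.

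KLF8 gave 6.26, 7.06, 3.34 and 4.24 in endometrium, and 7.33, 9.03, 6.79 and 7.68 in blood. The tissues overlapped only through the endometrium of animal 2 and the blood of animal 3. The probe was well above background in all 8 blood channels but in only 4 endometrial channels, none of them of animals 3 and 4, so the difference is set in part by low values. Its mean log2 ratio of -2.48 ± 0.58 (SE, n = 4 animals) had the lowest adjusted p of the family, 0.133 from limma. It was -2.95 without animal 1, and -0.67 when the scanner's median intensities were normalized in place of the authors' table.

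Among the factors that bind SIN3A, KLF13, which drives transcription of RANTES in T cells, was higher in blood in every animal by both probes. The first probe had levels of 9.32, 9.74, 8.75 and 11.69 in endometrium, and 10.94, 12.36, 12.36 and 12.32 in blood. The blood samples of animals 2 to 4 were nearly equal and that of animal 1 was lower, below the endometrium of animal 4. The second probe had 12.53, 12.07, 11.11 and 14.95 in endometrium and 14.18, 15.89, 15.80 and 15.68 in blood, again with animal 4 the highest and animal 3 the lowest in endometrium and animal 1 the lowest in blood. The mean log2 ratio was -2.12 ± 0.60 for the first probe and -2.72 ± 0.74 for the second (SE, n = 4 animals), with adjusted p of 0.193 and 0.181 from limma. In both probes animal 3 had the largest and animal 4 the smallest difference, as over all probes the ratios of animal 3 were the widest and those of animal 4 the narrowest.

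KLF9, a target of the progesterone and glucocorticoid receptors, had log2 ratios of 0.73, -2.22, 1.78 and -0.72. KLF10 and KLF11, both induced by transforming growth factor beta, had means of -0.37 ± 0.48 and -0.74 ± 0.53 (SE, n = 4 animals). Without 1 animal KLF10 ranged from -0.62 to -0.15 and KLF11 from -1.0 to -0.29, the latter without animal 3. KLF10 stayed within a narrow range of 14.55 to 15.73 over all 8 tissue samples. None of these 3 genes had a common sign in the animals, and the 95% intervals (-1.8 to 1.58, -1.52 to 0.77 and -2.0 to 0.51) do not exclude a 2-fold difference in either direction for KLF9, or a 2-fold lower level in endometrium for the other two.

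KLF15, a regulator of glucose and amino acid metabolism in liver and muscle, was detected in some samples only. Its level was 8.42, 2.67, 10.03 and 7.79 in endometrium and 9.59, 6.05, 2.35 and 3.41 in blood. It was well above background in both channels of every tissue sample except the endometrium of animal 2 and the blood of animals 3 and 4. The resulting log2 ratios ran from -3.37 to 7.67, and the mean of 1.88 had an SE of 1.71.

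The genes whose level over the 8 tissue samples was most like that of KLF2 were SLC6A15, a transporter of neutral amino acids (r = 0.978), TGFBR2, a receptor of transforming growth factor beta (r = 0.971), and RCAN2, an inhibitor of calcineurin (r = 0.963). For KLF4 they were FZD1, a Wnt receptor (r = 0.991), SFRP4, a secreted Wnt antagonist (r = 0.987), and FAM20C, a kinase of secreted proteins (r = 0.979). For KLF6 they were VPS45, which acts in vesicle traffic (r = 0.979), CD63, a tetraspanin of late endosomes (r = 0.977), and OGFOD3 (r = 0.976). These are descriptions over 8 samples of 4 animals, chosen as the highest of all probes tested that carried a gene symbol. Some had low levels in part of the samples, down to 2.45 for FZD1, 2.41 for SFRP4 and 3.06 for SLC6A15. Between the members themselves, r was 0.657 for KLF4 with KLF6, -0.297 for KLF2 with KLF4 and -0.515 for KLF2 with KLF6.

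The genes around the family were taken from lists of known roles. Of the SP factors, which bind similar sequences, 0 of 7 tested were called, beside 1.35% of all probes. A count of 0 in a list this short lies near that share. SP1 had a log2 ratio of -1.50 and SP3 of -0.87, with adjusted p of 0.316 and 0.400 from limma. Both were higher in blood in 4 of 4 animals, as were 15.2% of all probes. SP2 had -0.73. SP5 was not well above background in any blood channel. The median over the list was -0.58.

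Of the cofactors and ubiquitin ligases that act on KLF proteins, 0 of 13 tested were called, beside 1.35% of all probes. The median log2 ratio of the list was -0.92. The largest differences were those of SIN3A, the co-repressor scaffold (-1.41), the acetyltransferase CREBBP (-1.24), SIN3B (-1.21) and the ubiquitin ligase WWP1 (1.20). SIN3A and CREBBP met the unadjusted rule in blood, as did 8.05% of all probes, with adjusted p of 0.258 and 0.268 from limma. In the MEK5, ERK5 and MEF2 pathway, which induces KLF2 and KLF4 in endothelium, 0 of 7 genes tested were called, beside 1.35% of all probes. The unadjusted rule was met by 0 of them, beside 7.98% of all probes in endometrium and 8.05% in blood. Counts of 0 in lists this short lie near these shares. MAP3K2, MEF2D, MEF2C and MAP3K3 had log2 ratios of -1.47, -1.43, -1.04 and -0.74. The median was -0.74.

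Of 16 genes reported elsewhere as targets of KLF2, KLF4 or KLF6, 2 were called, and both rose in endometrium over blood. Over all probes 1.35% were called, and 204 of those 224 were higher in endometrium. MRC1, the mannose receptor of alternatively activated macrophages, had log2 ratios of 4.42, 3.20, 4.87 and 5.86 (adjusted p of 0.0142 from limma). VCAM1, an adhesion molecule of endothelium and macrophages, had 4.72, 2.02, 3.50 and 4.53 (adjusted p of 0.0390). The median of the list was -0.32. Of the other 14, members lay on both sides of 0. By the unadjusted rule 3 of the 16 were higher in endometrium (7.98% of all probes) and 2 in blood (8.05%). Those in blood were CDKN1A (-1.43) and TGFB1 (-1.27), with adjusted p of 0.269 and 0.310 from limma. Each was higher in blood in 4 of 4 animals, as were 15.2% of all probes. HMOX1, the stress-induced heme oxygenase, was higher in endometrium in 4 of 4 animals, as were 9.82% of all probes. Its mean log2 ratio was 2.97 (adjusted p of 0.127 from limma). CD14, also on this list, had a mean log2 ratio of -0.17, with -2.09 in animal 1 and 0.31 to 0.65 in the other 3.

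KLF2, KLF4, KLF6 and KLF10 belong to the genes that respond quickly to stimulation, so immediate early genes were set beside them. Of 20 tested, 0 were called, 5 met the unadjusted rule in endometrium and 1 in blood, and the median was 0.29. Of all probes, 1.35% were called, 7.98% met the unadjusted rule in endometrium and 8.05% met it in blood. FOSB had the largest difference, at 3.17 with an adjusted p of 0.0522 from limma, followed by NR4A3 at -2.20, JUN at 2.07 and FOS at 2.05. FOSB and JUN were higher in endometrium in 4 of 4 animals, like KLF4, KLF6 and 9.82% of all probes. FOS (0.24), FOSB (1.96) and EGR1 (0.87) had their smallest log2 ratio in animal 4, where KLF6 had 0.43. JUN had its smallest in animal 2 (1.1) and ATF3 in animal 1 (0.63). Over all probes the ratios of animal 4 were the narrowest, with an SD of 1.39. The part of the immediate early genes in the KLF values was not tested.

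Markers of other cells differed between the tissues as well. The counts called in the lists below stand beside 1.35% over all probes. Of the monocyte and macrophage markers, 2 of 9 tested were called (MSR1 at 4.61 and MRC1), and the median of the list was 2.30. CD68 had a log2 ratio of 1.61, whereas ITGAM (-1.36) and LYZ (-1.15) lay toward blood. All 8 trophoblast markers tested were called, with a median of 5.22. The mean level of that list ran from 11.76 to 13.49 in endometrium and from 6.12 to 7.80 in blood. Of the epithelial markers, 5 of 9 were called (KRT8, KRT18, EPCAM, CDH1 and CLDN3), with a median of 3.47 and mean levels of 9.15 to 13.70 in endometrium and 6.16 to 9.23 in blood. Of the stromal markers, 2 of 8 were called (COL3A1 and DCN), with a median of 2.93 and mean levels of 5.63 to 14.72 in endometrium and 4.77 to 9.56 in blood. Their part in the values of KLF4, KLF5 and KLF6 was not tested.

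The stromal list had median log2 ratios of 5.93, 0.67, 3.70 and 1.98 in animals 1 to 4, beside 2.37, 1.12, 4.07 and 1.09 for KLF4. Animals 1 and 3 were the highest in both. The endothelial list, with 0 of 10 called, had 2.35, -0.55, 2.07 and -0.34. Its mean level ran from 5.71 to 9.26 in endometrium and from 6.26 to 7.04 in blood, and 2 of its genes were well above background in no blood channel.

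The B cell list, with 0 of 6 called and 4 by the unadjusted rule in blood (8.05% of all probes), had a median log2 ratio of -3.04. Its medians in animals 1 to 4 were -2.84, -4.36, -4.97 and -0.39. They stood beside -1.62, -2.62, -3.61 and -0.63 for the first KLF13 probe, so that animals 4, 1, 2 and 3 followed in the same order. SP1 (-1.06, -1.19, -3.56 and -0.17) and SP3 followed this order too. Over all probes, the ratios of animal 3 had the largest SD (2.37) and those of animal 4 the smallest (1.39). Of the 6 B cell genes, CD79B was well above background in only 2 of 8 endometrial channels, with levels of 2.51 or below in animals 1 and 2, 3.81 in animal 3 and 9.36 in animal 4. The list had mean levels of 7.82 to 12.12 in endometrium and 11.10 to 14.05 in blood. The T cell list, with 0 of 9 called, had 2.02, 0.08, -0.81 and -0.24, positive in animal 1 as KLF2 was. In animal 1 the stromal, trophoblast, epithelial, natural killer, endothelial and macrophage medians were positive too. Those of the B cell and granulocyte lists were negative. In animal 2 KLF2 had -2.85. The mean level of the T cell list ran from 7.2 to 12.16 in endometrium and from 5.66 to 12.26 in blood. The natural killer and granulocyte lists had 0 of 6 and 0 of 5 called, with medians of 1.31 and -1.48. The part of these cells in the KLF values was not tested.

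**Figure D3:**
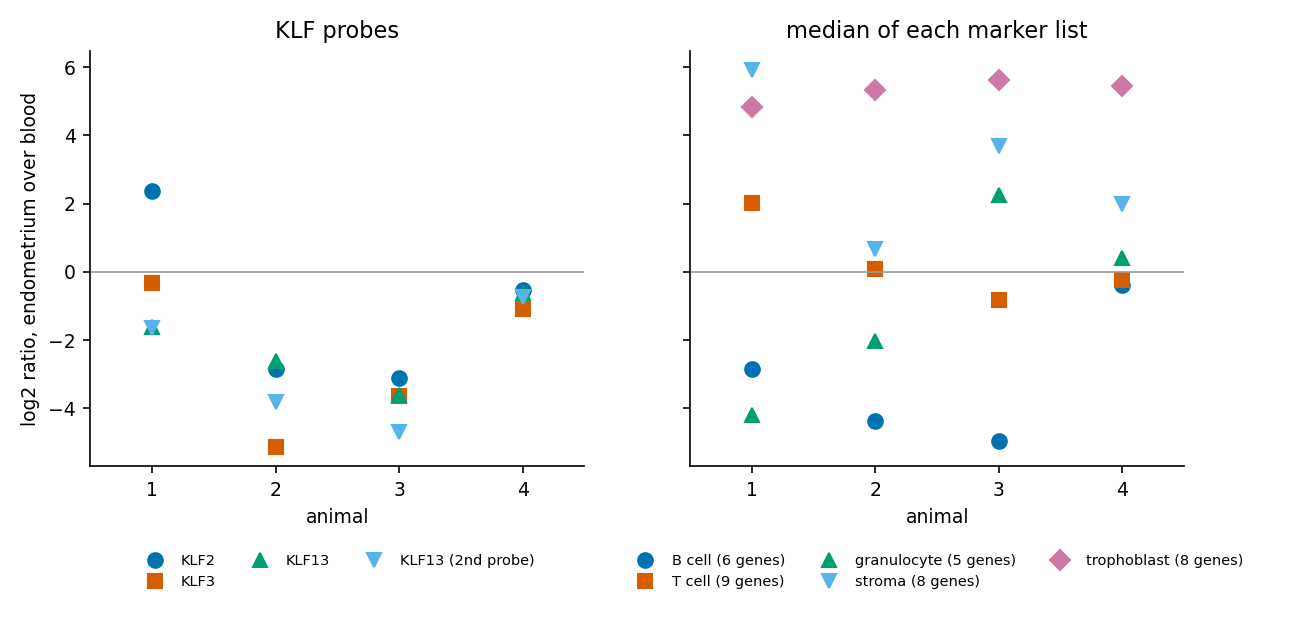
Log2 ratio of endometrium over blood (y axis) in animals 1 to 4 (x axis). The left panel shows the probes of KLF2, KLF3 and KLF13, and the right panel shows the median of each marker list. KLF13 and the B cell list both lie closest to 0 in animal 4 and farthest below it in animal 3. Over all probes the ratios were also narrowest in animal 4 and widest in animal 3.

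Under other ways of processing, the means of KLF4 and KLF6 stayed above 0 except where each scanner file was read under the technical replicate to which it is attached. The scanner's processed signals were put by rank on the set of values of each column of the authors' table. The means per probe then lay within 0.001 of that column for 100% of the probes in the channel of the labelled dye and animal but of the opposite technical replicate, and the files were read in that way. Read as attached, they gave -0.11 for KLF4 and -0.36 for KLF6. Compared with the reading used, this exchanged blood and endometrium in animals 1, 2 and 4, whose dyes were exchanged between arrays. Animal 3 kept its tissues.

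**Figure D4:**
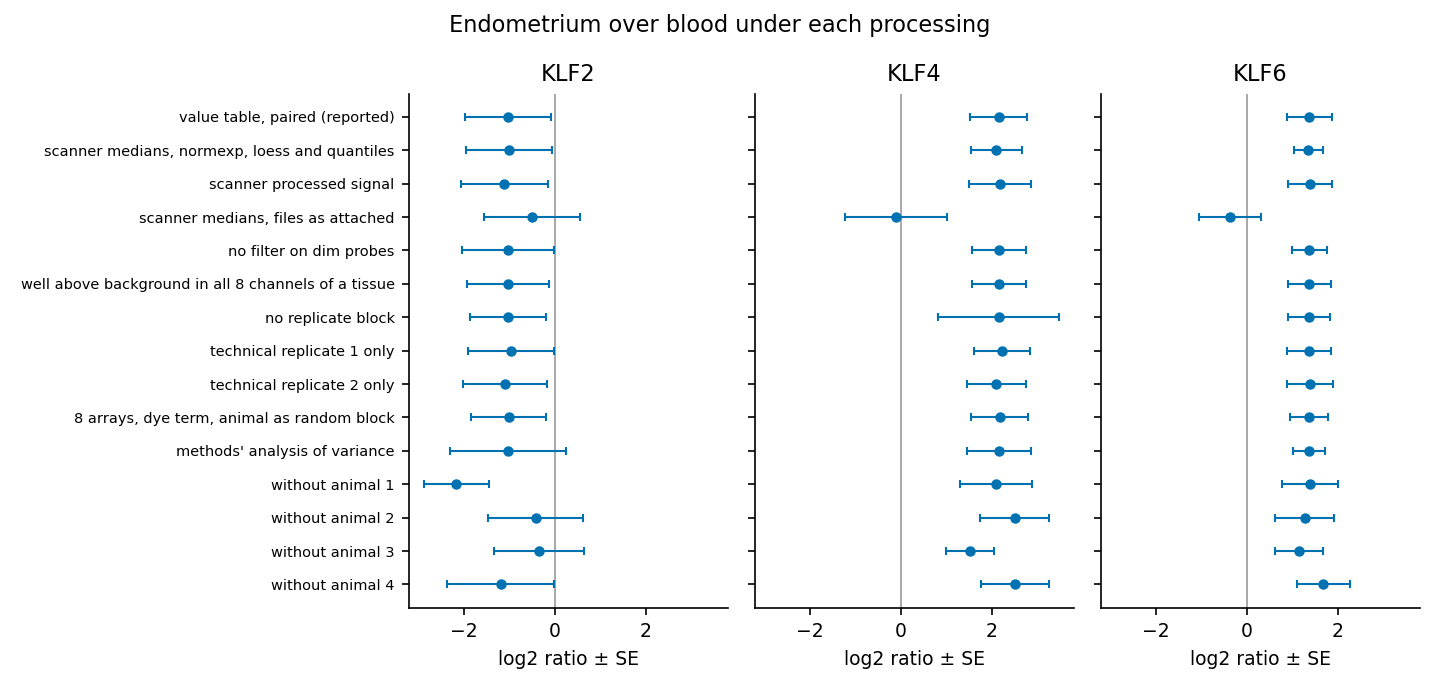
Mean log2 ratio of endometrium over blood with its SE (x axis) for KLF2, KLF4 and KLF6 under each processing (y axis). KLF4 lies between 1.53 and 2.52 and KLF6 between 1.15 and 1.69 in all settings but the files as attached, and KLF2 lies between -2.16 and -0.34.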

How the data were processed

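RNA of 16 samples (endometrial and blood CD14+ cells of 4 animals, 2 technical replicates each) was measured on 8 arrays with 2 colours. The authors deposited scanner intensity values per spot, not normalized between arrays, and a table of log2 values that, per the methods, had been through lowess normalization on each array and then quantile normalization. Agilent Feature Extraction is given as version 9.5 in the submitters' processing notes and as 10.5.1.1 in the file headers.

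Here the log2 table was used, with spots averaged per probe and technical replicates averaged per animal. The ratio of endometrium over blood within animals was tested against 0 with limma 3.58.1 (R 4.3.3, lmFit and eBayes), with Benjamini-Hochberg adjustment over 16653 of 21475 probes. Scanner files were exchanged between the technical replicates of an animal, a choice made after the values were seen. Scanner alternatives used normexp with an offset of 50 and statmod 1.5.0. Tissues were paired by animal, as the labels give, and deviations of the tissues of an animal correlated at 0.628, 0.372, 0.239 and 0.452. The share of spots well above background was 65.2% to 82.9% per channel, and the number of animals limits the precision. An exact permutation test over 4 animals cannot give a p under 0.125. The fit was tested on simulated data.

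The genes named are all KLF genes, the 3 genes with a symbol that had the highest Pearson r with each of KLF2, KLF4 and KLF6, called members of the lists or otherwise up to 4 with the largest ratio, CD14, CD68, SP1 and SP3. HMOX1, CDKN1A, TGFB1, EGR1, ATF3, ITGAM, LYZ, CSF3R, CD3E and CD79B were named after their values were seen. Of several probes of a list gene, that with the highest mean level was taken. PAG1 was left out of the trophoblast list, because the array's probe of that name belongs to another gene. Symbols follow the RefSeq gene table of the ARS-UCD2.0 assembly where it held the probe's identifier. Members and lists were chosen with earlier results of these data known. Alternatives changed the values used, the filter, the pairing, the dye term, the technical replicates, the test and the animals.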

Additional observations from a re-analysis of the deposited data

Results flagged for a closer look

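In blood, KLF13 of animal 1 lay far below the other 3 animals by both probes, at 10.94 for the first probe and 14.18 for the second, with gaps of 0.973 and 0.878 of the whole range of the group. These were 2 of 39 groups of 4 values examined, of which chance would single out about 1 in 20. Without animal 1 the mean log2 ratio was -2.29 for the first probe and -3.08 for the second. Animal 1 was also the animal at the earliest day of pregnancy, and its blood sample differed from the others over all probes.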

How the results depend on the processing

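The number of differentially expressed probes, 224 as reported, was 11 with scanner medians normalized by normexp, loess and quantiles, 123 without the filter on dim probes, 38 with no replicate block, and 0 with the files as attached, where 121 probes met the unadjusted rule. It was 1229 with no adjustment and 0 after it by the methods' analysis of variance, and ranged from 0 to 180 when 1 animal was left out (64 without animal 1, 180 without animal 2, 95 without animal 3, and 0 without animal 4, where 2674 met the unadjusted rule). Of the 12 KLF genes, 0 passed the adjusted rule under any alternative, with a lowest adjusted p of 0.0814 from limma. By the unadjusted rule 3 passed in the analysis of variance, among them KLF6 at 1.38 and KLF8, 5 as reported, 0 with the files as attached and 3 to 5 under each other alternative. Leaving out 1 animal gave -2.16 to -0.34 for KLF2, 1.53 to 2.52 for KLF4, 1.15 to 1.69 for KLF6, -3.29 to -1.68 for KLF3, -1.20 to -0.39 for KLF5, -0.25 to 0.11 for KLF7, -0.74 to 0.60 for KLF9 and -0.06 to 3.62 for KLF15. With no replicate block the paired means stayed the same and no KLF gene was called.

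The files as attached turned the sign of KLF3 (0.34), KLF4 (-0.11), KLF5 (0.49), KLF6 (-0.36), KLF7 (0.21), KLF8 (0.42), KLF9 (0.53), KLF10 (0.54) and of both KLF13 probes (0.29 for the first and 0.40 for the second). KLF7 also turned with technical replicate 1 only (0.01) and without animal 4 (0.11). KLF9 turned with scanner medians (0.02), without animal 2 (0.60) and without animal 4 (0.10), and KLF15 turned without animal 3 (-0.06). Of 168 combinations of KLF gene and alternative, 15 turned the sign, and KLF2 and KLF11 turned under none. With the files as attached, the tissues of animals 1, 2 and 4 were exchanged but not those of animal 3. A sign kept there, as for KLF2 (-0.50), therefore does not show stability. The median of all probes moved from -0.14 to -0.02 with scanner medians. Apart from the exchange of tissues, the causes were not tested.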

Other observations

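KLF16 and KLF12, further members of the family, were named only in fields that the choice of genes did not use. KLF16, a factor that binds SIN3A, had log2 ratios of -1.75, -1.26, -0.58 and -0.92, all in the direction of blood, and a mean of -1.13 ± 0.46 (SE, n = 4 animals). Its adjusted p from limma was 0.301, and the probe was well above background in 6 of 8 endometrial and 8 of 8 blood channels.

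KLF12, a repressor that binds CTBP, had 3 probes that differed in sign. The probe with the highest mean level gave 12.06, 14.30, 12.98 and 14.11 in the endometrium of animals 1 to 4 and 9.83, 14.25, 13.79 and 14.45 in blood, so that the blood of animal 1 was the lowest. Its mean log2 ratio was 0.28, and those of the other probes were -0.36 and 0.49, each with animals on both sides of 0. The 95% intervals of the 3 probes ran from -2.24 to 1.74 at their widest limits.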
